A study of Homo sapiens with 2 samples.

Results

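The nuclear-encoded subunits of the mitochondrial respiratory chain were measured by RNA-seq in HEK293T cells in which short hairpin RNAs stably reduce FKBP5. HEK293T is a line from human embryonic kidney that carries the SV40 large T antigen. The set was chosen by gene symbol and holds protein-coding genes named NDUFA, NDUFB, NDUFC, NDUFS, NDUFV, SDHA to SDHD, UQCR, COX4I to COX8, ATP5F1, ATP5M or ATP5P, and CYC1. These letters matched 90 genes, of which the readthrough genes NDUFC2-KCTD14 and ATP5MF-PTCD1 were set apart because their exons lie wholly within other genes' exons. The set is therefore 88 of the 60683 genes in the count table, with 37 in complex I, 4 in complex II, 10 in complex III, 19 in complex IV and 18 in complex V. NDUFA4, NDUFA4L2 and COX7A2L were placed in complex IV. Pseudogenes and assembly factors were left out.

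Both samples carry the same genotype label, FKBP5 knockdown, and form 1 group. The extraction protocol also names scramble cells, which were not analysed here, so no value below is a change caused by the knockdown. The labels say neither which hairpins were used nor whether the stable cells were a clone or a pool. FKBP5, an immunophilin that binds HSP90, had 41 counts in sample 1 and 77 in sample 2. Sample 1 held 9997706 counts and sample 2 held 21284648, so sample 2 is known more precisely. The labels do not tie the samples to separate cultures, and a difference between them may be technical. The p-values below compare these 2 libraries only and measure no spread between cultures. All 8 markers of the line (VIM, CDH2, NEFM, NEFL, INA, LIN28B, PAX2 and EYA1) reached 1 CPM, with a median of 79.5 CPM. Of the markers of other tissues, 3 of 4 for blood, both for endothelium, 2 of 3 for fibroblasts and both for liver were under 1 CPM.

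The respiratory chain moves electrons from NADH (complex I) and succinate (complex II) through ubiquinone, complex III and cytochrome c to oxygen at complex IV, and the proton gradient that it builds drives ATP synthesis by complex V. Complex II is built from nuclear-encoded subunits alone, while the other complexes combine nuclear-encoded subunits with subunits made from mitochondrial DNA. Several complex IV subunits come as paired isoforms, a widely expressed form and a form of muscle, lung or testis.

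Nearly all subunits were expressed, and their levels spread widely. Levels are the CPM as deposited, that is, counts scaled to library size, and the values of sample 1 and sample 2 are given in that order. Of the 88 subunits, 80 had a mean of at least 1 CPM, 25 had at least 100 CPM and 8 were under 1 CPM. The median was 46.0 CPM (46.6 and 44.5), and their summed share of counts was 0.773% and 0.726%. The median of the 15530 genes whose mean reached 1 CPM was 23.5 CPM. A longer transcript gives more reads, so levels of different genes are compared as CPM per kilobase of the principal transcript in GENCODE 29 (GRCh38). On that scale the complex medians were 43.3 for complex V, 35.0 for complex III, 32.0 for complex I, 18.8 for complex IV and 9.78 for complex II. The order of complexes depends on the length used. With the median length of a gene's protein-coding transcripts, complex II was highest at 93.3 and complex IV lowest at 30.1. Complex IV holds most of the tissue isoforms, and its median over the 14 subunits with at least 1 CPM was 33.3.

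**Figure D1:**
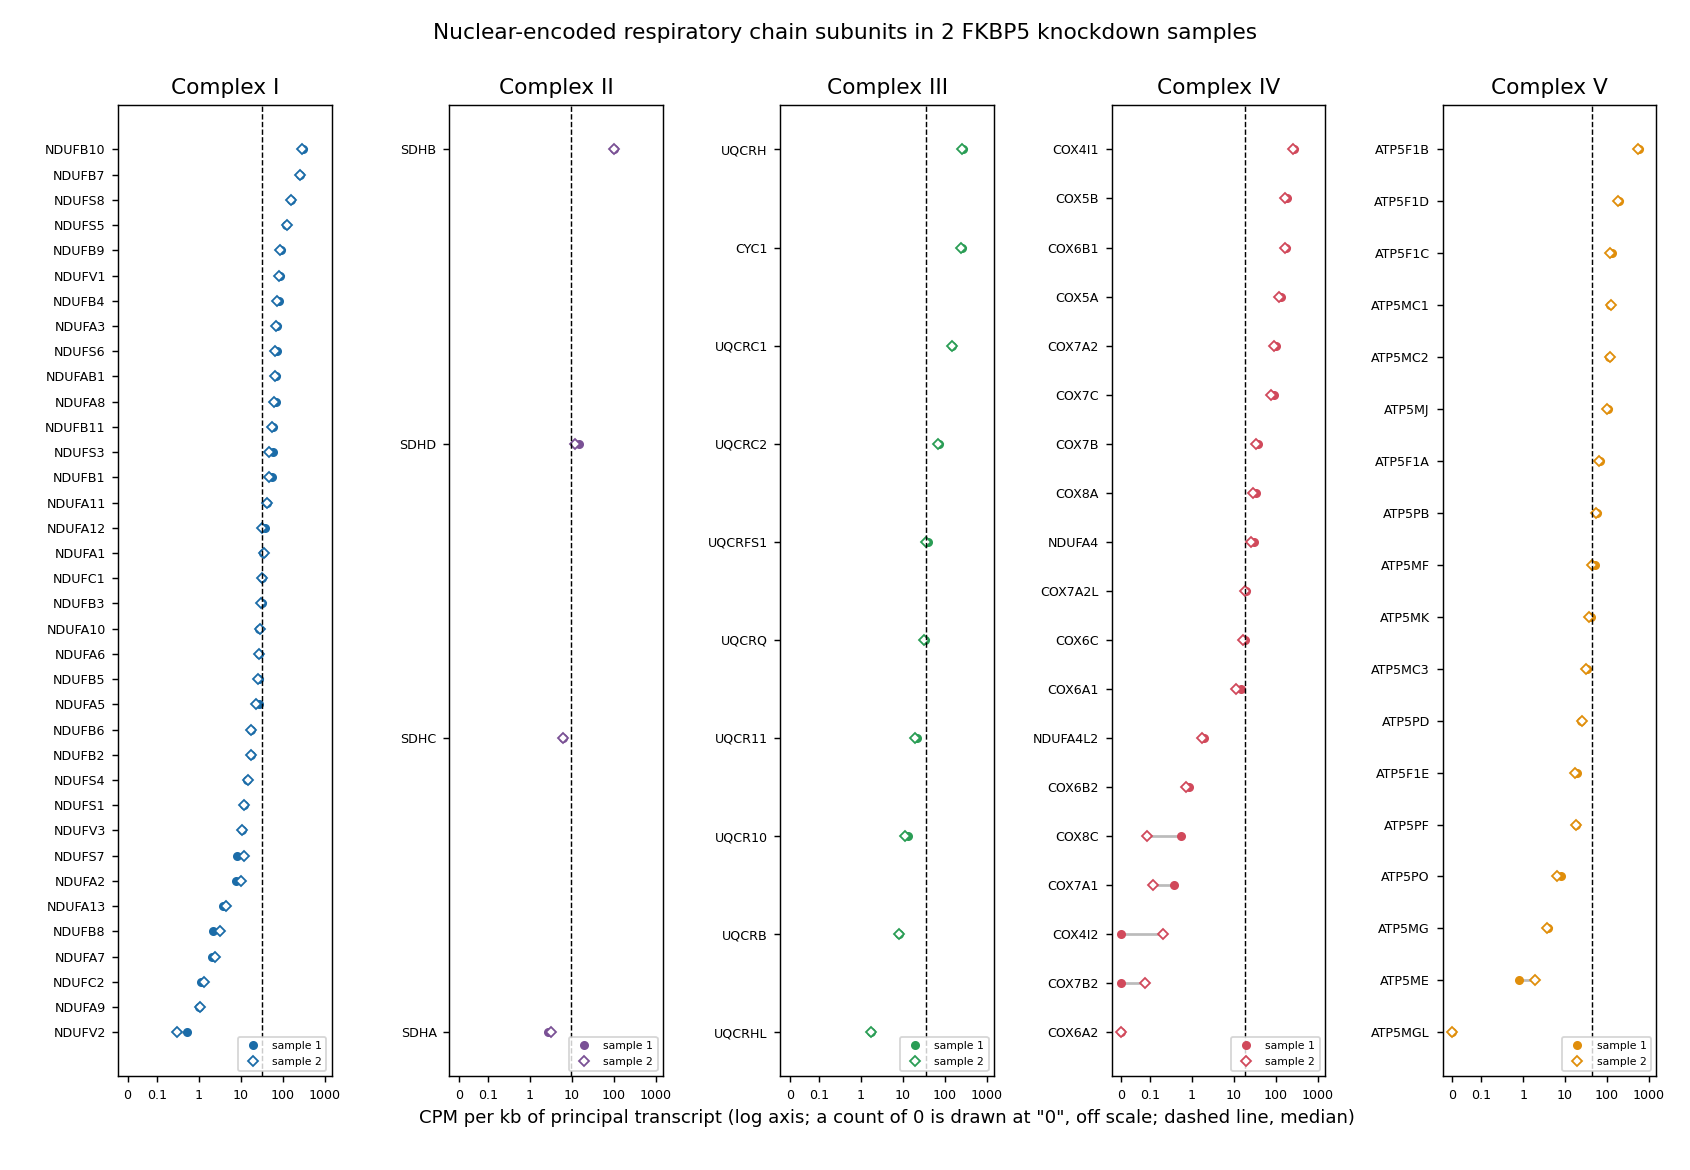
Each panel shows subunits of 1 complex, ordered by mean level; the x axis is CPM per kilobase of principal transcript on a log scale, filled circles are sample 1, open diamonds sample 2, and the dashed line is the complex median. The samples lie close together for nearly every subunit, while subunits of the same complex spread widely, from 0.407 to 296 CPM per kilobase in complex I; wider gaps between the samples are seen at the bottom of complexes I, IV and V, where counts are few.

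Among the complex I core subunits, which together, though not each of them, hold the flavin and the iron-sulfur clusters, the iron-sulfur protein NDUFS8 was highest and NDUFV2 lowest. NDUFS8 had 128 and 124 CPM, or 159 ± 2.90 CPM per kilobase (SD, n = 2, as for all values with ±). NDUFV1, which holds the flavin and takes electrons from NADH, had 219.6 and 210.1 CPM, or 85.0 ± 2.65 per kilobase. NDUFV2, the iron-sulfur partner of NDUFV1 in the complex, had only 5 and 6 counts, or 0.482 and 0.275 CPM. The 95% exact Poisson interval of NDUFV2 reached no higher than 1.12 and 0.598 CPM, so counting error does not bring it near NDUFV1. Of the bases of its principal transcript, 82.9% overlap the exons of ENSG00000265257 on the same strand, which had no count in either sample. Of the 50-base stretches of its transcript, 18.0% are unique to it, that is, found in no transcript of another gene. Pseudogenes share 26.2% of the stretches of NDUFV2, and its pseudogene NDUFV2P1 had 9 and 13 counts. Whether NDUFV2 reads were lost to that overlap or to copies was not tested.

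Other core subunits lay between these. NDUFS3, which sits in the peripheral arm, had 53.7 ± 8.20 CPM per kilobase. NDUFS1, the largest iron-sulfur subunit, had 140.3 and 144 CPM, which is 12.02 ± 0.211 per kilobase with its annotated transcript of 11819 bases and 59.6 with its median transcript length of 2382 bases. NDUFS7, an iron-sulfur protein near the ubiquinone site, had 10.1 ± 3.05 CPM per kilobase. Of the core subunits named here, it was the only one other than NDUFV2 that had under 15 CPM in both samples, and 100% of its stretches are unique to it.

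The accessory subunits of complex I surround this core and have no part in electron transfer. NDUFB10, in the distal membrane arm, had the highest level of the complex, 214 and 202 CPM or 295.6 ± 11.999 per kilobase. NDUFB7, on the intermembrane face of the same arm, followed at 266 ± 1.10 CPM per kilobase. Both led by principal transcript, and with the median transcript length NDUFB10 (313) and NDUFV1 (306) led. NDUFAB1, which is also the mitochondrial acyl carrier protein, had 68.4 ± 3.67 CPM per kilobase. NDUFS5, NDUFB9, NDUFB4, NDUFA3, NDUFS6, NDUFA8 and NDUFB11 lay between 56.2 and 122 CPM per kilobase, and 15 others between 8.76 and 52.2. By principal transcript the lowest accessory subunits were NDUFA9 and NDUFC2, with 1.04 ± 0.0253 and 1.23 ± 0.113 CPM per kilobase. NDUFA7, NDUFB8 and NDUFA13 followed with 2.26 ± 0.249, 2.68 ± 0.743 and 4.16 ± 0.518 CPM per kilobase. The principal transcript of NDUFA9 has 8363 bases, and with the median transcript length NDUFA9 had 13.6 and NDUFC2 5.51. By that length NDUFA7 (2.26) and NDUFB8 (2.63) were the lowest accessory subunits. NDUFA13 had 39 counts in sample 1 and 98 in sample 2. Same-strand exons of other genes cover 11.8% of NDUFA9 and 17.1% of NDUFC2, against 75.9% of NDUFA7, 71.7% of NDUFB8 and 44.1% of NDUFA13.

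The 4 subunits of complex II had unequal levels. SDHB, the iron-sulfur subunit, was highest at 115 and 116 CPM, or 99.96 ± 0.687 CPM per kilobase. SDHA, the flavoprotein that oxidises succinate, was lowest at 6.65 and 7.64 CPM, or 2.99 ± 0.293 per kilobase, and the 2 samples' ranges of SDHA and SDHB did not overlap. SDHA has 4 named pseudogenes in the table, which together held 575 counts in sample 1 and 1130 in sample 2, against 69 and 167 for SDHA itself. SDHAP3 alone had 305 and 526. No other gene's exon overlaps SDHA on its strand, but 21.3% of its stretches are shared with pseudogenes. Whether SDHA reads were counted to these copies was not tested. The membrane anchors SDHC and SDHD had 84.2 and 82.5 CPM and 21.1 and 17.5 CPM. SDHC was 6.15 ± 0.0904 CPM per kilobase of a principal transcript of 13566 bases, and 181 with its median transcript length of 460 bases, the highest of the complex. SDHA was lowest by either length.

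In complex III the hinge protein and the cytochrome led per kilobase of principal transcript. UQCRH, the acidic hinge protein at the cytochrome c docking site, had 162 and 153 CPM or 260.3 ± 10.5 per kilobase. CYC1, the haem-bearing cytochrome c1, had 315 and 305 CPM or 249.9 ± 5.83 per kilobase, within the spread of UQCRH. The core proteins UQCRC1 and UQCRC2 had 149 ± 3.31 and 69.5 ± 3.10 CPM per kilobase. The order depends on the length used: with the median transcript length UQCRC2, at 188 and 176 CPM, led with 310.3, before UQCRH with 260.3. UQCRFS1, the Rieske iron-sulfur protein, had 37.8 ± 1.88 CPM per kilobase, and 86.3% of its stretches are unique to it. The membrane and core-linked subunits UQCRQ, UQCR11, UQCR10 and UQCRB had 32.2 ± 1.22, 20.7 ± 1.11, 12.3 ± 1.83 and 8.07 ± 0.169 CPM per kilobase. UQCRHL, a copy of UQCRH that keeps its reading frame, was the lowest of the complex at 1.74 ± 0.0275 CPM per kilobase.

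Complex V had the most abundant subunit of the whole set. ATP5F1B, the catalytic beta subunit of the F1 head (chr12:56638175-56646068 on the minus strand), had 1091 and 1021 CPM, or 574 ± 26.9 per kilobase. ATP5F1A, the alpha subunit that alternates with beta, had 394 and 369 CPM. That is 65.6 ± 3.03 CPM per kilobase of a principal transcript of 5818 bases, and 419 with the median transcript length, next to ATP5F1B at 1234. The rotor subunits of the head, ATP5F1C (gamma), ATP5F1D (delta) and ATP5F1E (epsilon), had 127 ± 11.8, 193 ± 8.36 and 18.5 ± 1.74 CPM per kilobase. By module, the median CPM per kilobase was 127 for the 5 genes of the F1 head, 116 for the 3 genes of the c ring, 39.0 for the 5 other membrane subunits and 21.8 for the 4 genes of the peripheral stalk. ATP5PB, the stalk's membrane anchor, had 56.8 ± 3.56 CPM per kilobase. ATP5PO, the cap that joins the stalk to the head, was the lowest of the stalk at 7.15 ± 1.01, with 70.3% of its bases in another gene's exons on the same strand. Among the membrane subunits, ATP5MJ and ATP5MF had 102 ± 1.92 and 47.6 ± 5.12 CPM per kilobase and ATP5MK 39.0 ± 2.78. ATP5ME, a small membrane subunit, had 3 and 15 counts, or 0.289 and 0.686 CPM. Unlike NDUFV2, ATP5ME has no overlapping exon on its strand and 100% of its stretches are unique to it.

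Of the complex IV subunits without a tissue form, COX5B, on the matrix side, was highest per kilobase of principal transcript at 175 ± 8.41, with 129 and 120.4 CPM. COX5A, its neighbour in the complex, had 166 and 149 CPM, or 124 ± 9.24 per kilobase. With the median transcript length COX5A (274) and COX7C (201) exceeded COX5B (175). The small membrane subunits COX7C and COX6C had 84.5 ± 8.23 and 17.3 ± 1.57 CPM per kilobase. COX4I1, the largest nuclear-encoded subunit of the complex, led all 19 genes at 265 ± 4.66, and COX6B1, on the intermembrane side, had 169 ± 4.08. These subunits are present in equal numbers in the assembled enzyme, and their transcript levels spanned the range from COX6C to COX4I1.

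In each tissue-specific pair the widely expressed isoform made up nearly all transcripts. Shares below are of the CPM per kilobase summed over a set. COX4I1, the usual form of subunit 4, had 2434 and 5001 counts, and COX4I2, the form of lung and hypoxic cells, 0 and 3. A count of 0 in sample 1 allows COX4I2 a share of up to 0.123% of the pair's counts, taken here and below as 3 counts of the total. COX6A1 had 87 and 137 counts, while COX6A2, of heart and skeletal muscle, had 0 in both, which allows a share of up to 3.45% and 2.19%. The limit is looser there because COX6A1 is itself low, at 12.8 ± 2.62 CPM per kilobase, with 30.6% of its bases in another gene's exons on its strand. Pseudogenes share 34.6% of its stretches, and the pseudogene COX6A1P2 had 18 and 45 counts.

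COX7A2, the usual form of subunit 7a, held 83.4% ± 0.755 of its set, COX7A2L 16.4% ± 0.900 and the muscle form COX7A1 0.212% ± 0.145. COX7A2L encodes a factor that joins complexes III and IV into supercomplexes. Its part of the set was larger when CPM were not divided by length, since COX7A2 then held 60.3%. COX7A1 had 3 and 2 counts.

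The forms of testis were at or near the floor of detection, which is 3 counts, or 0.289 CPM in sample 1 and 0.137 CPM in sample 2. COX7B2 had 0 and 1 counts beside 950 and 1806 for COX7B. COX8C had 3 and 1 counts beside 176 and 322 for COX8A. COX6B2, the exception, was counted in both samples, with 18 and 33 counts beside 1187 and 2416 for COX6B1, which held 99.5% ± 0.0338 of the pair. Exons of another gene cover 37.0% of COX6B2 on its strand.

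None of the 7 markers of testis germ cells reached 1 CPM (0 to 0.495 CPM, and PRM1 had no count), and 6 of 9 markers of skeletal and heart muscle were under 1 CPM. The summed level of the muscle markers was 5.88 and 9.20 CPM, and of the testis markers 1.25 and 0.915 CPM. In RNA from whole cultures, fewer cells of a type and less RNA per cell cannot be told apart.

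NDUFA4L2, a paralog of NDUFA4 that hypoxia induces, was also counted in both samples, at 2.31 and 2.10 CPM. NDUFA4 had 64.4 and 55.6 CPM and held 93.8% ± 0.216 of the pair. ATP5MG had 66 and 126 counts, and ATP5MGL, a copy named for it, had none, which allows up to 4.55% and 2.38% of the pair's counts.

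**Figure D2:**
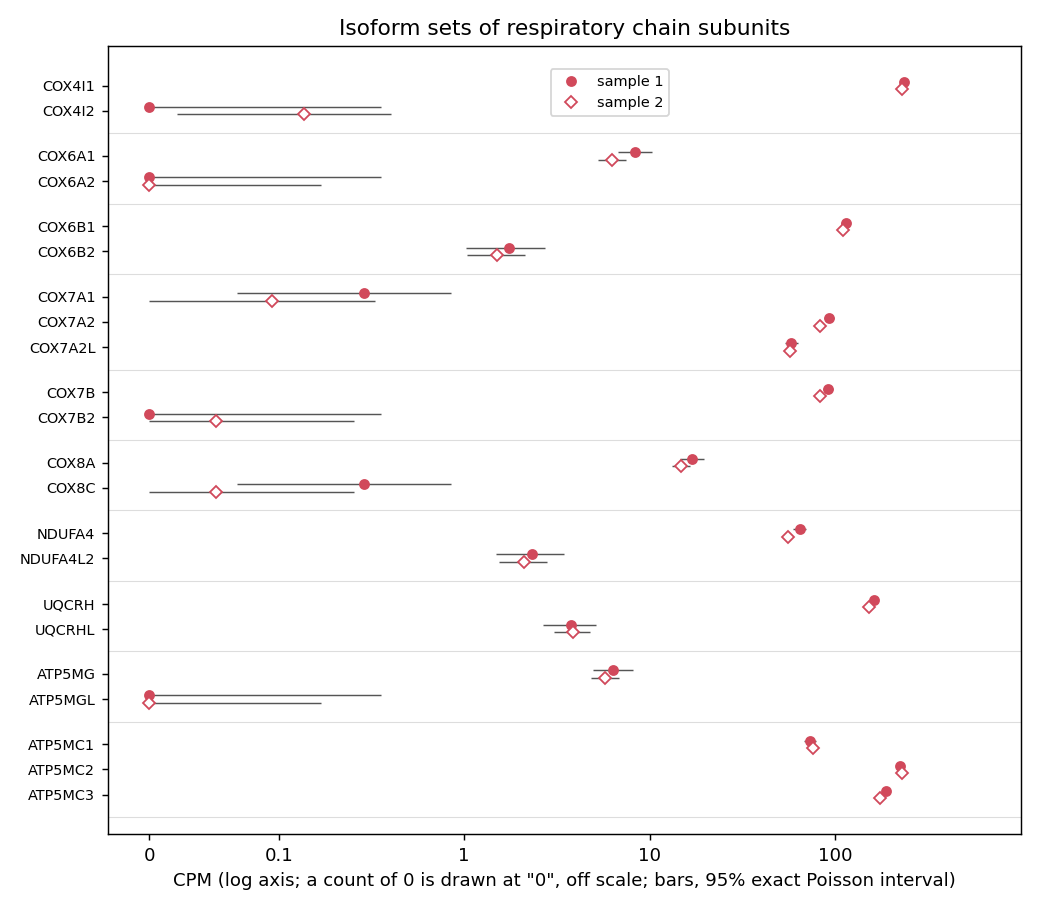
Rows are the genes of each isoform set, and the x axis is CPM on a log scale, with filled circles for sample 1, open diamonds for sample 2 and bars for the 95% exact Poisson interval of 1 sample. COX4I2, COX6A2, COX7A1, COX7B2, COX8C and ATP5MGL lie under 1 CPM in both samples, while COX6B2, NDUFA4L2 and UQCRHL lie between 1 and 10 CPM.

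The genes of the hinge protein and its copy differ at few coding positions. The coding sequences of UQCRH (chr1:46303631-46316776, plus strand) and UQCRHL (chr1:15807169-15809348, minus strand) have 276 bases each and are 98.6% identical. They are shown, from GENCODE 29 transcripts, because the 4 positions in capitals are the only ones at which a coding read separates these genes.
UQCRH: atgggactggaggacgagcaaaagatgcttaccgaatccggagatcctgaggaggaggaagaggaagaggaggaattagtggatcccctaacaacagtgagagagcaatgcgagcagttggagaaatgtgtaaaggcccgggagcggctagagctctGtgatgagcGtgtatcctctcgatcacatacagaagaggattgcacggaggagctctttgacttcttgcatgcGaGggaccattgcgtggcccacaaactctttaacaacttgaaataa
UQCRHL: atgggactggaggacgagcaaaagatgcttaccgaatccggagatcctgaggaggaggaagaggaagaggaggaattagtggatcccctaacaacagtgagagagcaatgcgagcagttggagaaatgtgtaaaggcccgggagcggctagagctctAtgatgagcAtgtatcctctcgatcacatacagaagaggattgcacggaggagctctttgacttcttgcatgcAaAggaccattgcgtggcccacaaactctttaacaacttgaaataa
UQCRH had 1678 and 3338 counts and UQCRHL 39 and 84, so UQCRH held 99.3% ± 0.0372 of the pair. Of the 50-base stretches of UQCRH 70.6% are unique to it, and of UQCRHL 91.6%.

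The 3 genes of the c ring encode the same mature protein behind different import sequences. Their last 228 coding bases are shown because the capitals, at 53 positions that are not the same in all 3, let reads be assigned to each gene.
ATP5MC1: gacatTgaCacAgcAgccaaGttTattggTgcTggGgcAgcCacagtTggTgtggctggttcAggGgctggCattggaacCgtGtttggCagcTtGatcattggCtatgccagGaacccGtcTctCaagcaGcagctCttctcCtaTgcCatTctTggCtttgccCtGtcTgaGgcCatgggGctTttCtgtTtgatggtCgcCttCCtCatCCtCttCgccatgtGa
ATP5MC2: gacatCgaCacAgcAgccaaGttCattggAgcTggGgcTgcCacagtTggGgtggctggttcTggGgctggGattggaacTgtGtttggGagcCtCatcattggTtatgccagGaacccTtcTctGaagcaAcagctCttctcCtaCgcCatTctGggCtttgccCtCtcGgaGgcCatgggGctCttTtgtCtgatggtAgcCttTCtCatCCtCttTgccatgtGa
ATP5MC3: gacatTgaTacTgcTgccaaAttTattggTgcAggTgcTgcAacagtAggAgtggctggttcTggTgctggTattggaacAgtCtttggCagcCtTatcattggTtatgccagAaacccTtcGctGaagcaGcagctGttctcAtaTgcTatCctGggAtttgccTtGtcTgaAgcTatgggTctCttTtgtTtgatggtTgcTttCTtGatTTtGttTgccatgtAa
In these bases ATP5MC1 and ATP5MC2 are 89.0% identical, and each is 81.1% identical to ATP5MC3. ATP5MC1 had 73.3 and 76.1 CPM, ATP5MC2 223 and 229 CPM, and ATP5MC3 188 and 174 CPM. No gene's samples overlapped those of another gene, with ATP5MC2 highest and ATP5MC1 lowest in counts. Per kilobase of principal transcript, ATP5MC1 had 122 ± 3.22, ATP5MC2 116 ± 2.07 and ATP5MC3 33.0 ± 1.78. The order is not settled, because ATP5MC1 held 45.0% of the set by that length, 23.1% by the median transcript length and 15.5% of the CPM not divided by length. No gene of the ring was near 0 on any of these scales.

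Low levels were more frequent where exons overlapped another gene's. Under 5 CPM per kilobase, a limit chosen after the values were seen, lay 18 subunits, of which 9 were the minor members of isoform sets. The other 9 were NDUFV2, NDUFA9, NDUFC2, ATP5ME, NDUFA7, NDUFB8, SDHA, ATP5MG and NDUFA13. Of these 9, 7 had over 10% of their bases in another gene's exons on the same strand, and the exceptions were ATP5ME and SDHA. Of all 79 subunits that are not minor isoforms, 16 had such an overlap and 63 did not. Under the limit were 7 of the 16 and 2 of the 63, and the median was 9.98 CPM per kilobase in the former and 53.1 in the latter. With the minor isoforms included, 8 of 17 subunits with such an overlap lay under the limit. Of the subunits without it, 9 of the 67 with at least 90% unique stretches did, and 1 of the 4 with fewer. These counts depend on the principal transcript length. With the median transcript length NDUFA9 (13.6), ATP5MG (8.42) and NDUFC2 (5.51) rose above the limit. NDUFV2, NDUFA7, NDUFB8, NDUFA13, ATP5ME and SDHA stayed under it. Overlap did not always go with a low level. NDUFA11, a subunit of the membrane arm, had 43.5 ± 0.0699 CPM per kilobase with 67.0% overlap and 36.1% unique stretches. How reads that fit several genes were counted was not given in the sources used here, and the part of lost reads in these levels was not tested. With the 67 subunits of which at least 90% of stretches are unique, the median rose from 46.0 to 60.5 CPM.

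**Figure D3:**
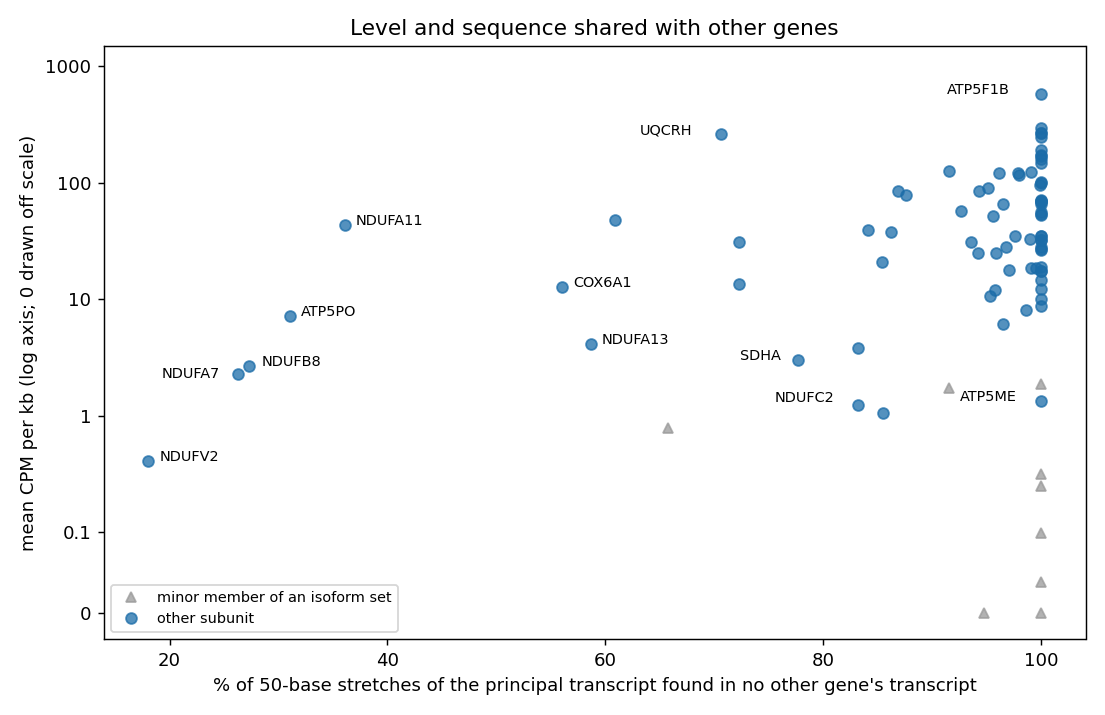
Each point is a subunit, with the share of its 50-base stretches that occur in no other gene's transcript on the x axis and its mean CPM per kilobase on a log y axis; triangles are minor members of isoform sets and circles the other subunits. NDUFV2, NDUFA7, NDUFB8 and ATP5PO, with under 50% unique stretches, lie under 10 CPM per kilobase and NDUFA11 above, and ATP5ME is low although all its stretches are unique.

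Pseudogenes named for the subunits held few reads beside the set as a whole. Named for 50 of the subunits, 189 pseudogenes were in the table, of which 86 had no count and 5 reached 1 CPM. Together they held 725 and 1505 counts, equal to 0.939% and 0.973% of the subunits' own. Most of these counts belonged to the SDHA copies described above. Beside their own subunit the copies were not always few. NDUFV2P1 had 9 and 13 counts, against 5 and 6 for NDUFV2. Copies made up 17.1% and 25.1% of the counts of COX6A1 and its pseudogenes together. For NDUFB8 these shares were 16.7% and 11.3%.

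The mitochondrially encoded subunits, apart from MT-ATP8, far exceeded the medians of their nuclear-encoded partners. MT-ATP8 had 53.7 ± 11.3 CPM per kilobase, beside a nuclear median of 43.3 in complex V. The mitochondrial median of complex V is over MT-ATP8 and MT-ATP6 (6642 CPM per kilobase) alone. The ratio of the median mitochondrial to the median nuclear subunit, each in CPM per kilobase, was 60.6 and 71.6 in complex I, 66.6 and 89.5 in complex V and 515 and 645 in complex IV. For complex III the only mitochondrial subunit, MT-CYB, stood 84.4 and 94.8 times above the nuclear median. In every complex with both kinds of subunit the ratio was higher in sample 2, with unique subunits alone as well (55.8 and 65.9 in complex I, 397 and 536 in complex IV). The tissue isoforms of complex IV lower its nuclear median, and over its 14 subunits with at least 1 CPM the ratio was 277 and 384. The difference was not tested over cultures, and the libraries differ in depth.

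The 2 libraries differed slightly in the nuclear subunits, mostly towards lower values in sample 2. A 2-sided exact binomial test of the counts, with Benjamini-Hochberg adjustment over all 15530 genes, compares the libraries, not conditions. By it, 11 of the 80 subunits tested (13.75%) differed, against a background of 8.97% of all genes tested. Of the 11, 10 were lower in sample 2 (4.56% of all genes were) and 1 was higher (4.41% of all genes). With column totals, DESeq2 size factors or TMM library sizes in place of the deposited ones, the same 11 passed and 3 more, ATP5MC3, COX7A2 and NDUFS6. Of all genes tested, 9.55% to 9.64% passed under these scalings. This background is not matched for level: the subunits' median was 46.0 CPM, against 23.5 CPM for all genes tested. More counts let smaller differences pass. With a minimum of 5 CPM, 12 of 73 subunits passed, and of all 11888 genes 710 were higher and 769 lower. The part of level in the subunits' share was not tested. The binomial test holds counting error only. With the variation between these libraries added, edgeR's exact test called 0 subunits and 13 genes in all (0.0837%). Of the 13, 9 were higher (0.058%) and 4 lower (0.0258%). Its common coefficient of variation of 5.60% was estimated from these same 2 libraries taken as 1 group. That coefficient therefore holds the difference under test, and the result is no independent check of the binomial test. At an unadjusted p under 0.05 edgeR's test gave 2 subunits (2.5%) and 881 of all genes tested (5.67%).

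Of the subunits with the lowest p, 3 belong to the ATP synthase or cytochrome oxidase and 2 to the complex I core. ATP5F1B had 1091 and 1021 CPM, and their 95% exact Poisson intervals, 1071 to 1112 and 1008 to 1035, did not overlap. Its log2 ratio of CPM + 1 was -0.10 (adjusted p = 1.27e-06 by the exact binomial test). COX7C, a small membrane subunit of complex IV, had 143 and 125 CPM, a log2 ratio of -0.20 (adjusted p = 0.000862, exact binomial test). NDUFS3 had 57.0 and 45.8 CPM, a ratio of -0.31 (adjusted p = 0.00128, exact binomial test). ATP5F1C had 146 and 128 CPM, a ratio of -0.19 (adjusted p = 0.00153, exact binomial test). NDUFS7 went the other way with 8.29 and 12.8 CPM, a ratio of 0.57 (adjusted p = 0.00742, exact binomial test). COX5A, ATP5F1A, ATP5PB, NDUFA4, NDUFA5 and ATP5F1E were also lower in sample 2, with ratios from -0.23 to -0.09.

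By complex, the median log2 ratio was -0.15 in complex IV, where 0 of 14 subunits were above 0, and -0.10 in complex V, where 3 of 16 were. In complex III it was -0.08, in complex I -0.02 with 16 of 36 above 0, and in complex II -0.01. Over all 80 subunits the median was -0.08 with 24 above 0, and over all genes tested 0.01 with 8241 of 15530 above 0. The signs of the complex medians and the count for complex IV were the same under the other 3 scalings. Of the 3507 genes whose principal transcript lies within the subunits' length quartiles (706.5 to 1958.75 bases), a range set after the values were seen, 241 were lower and 111 higher, or 10.04% in all against 8.97% of all genes tested, with a median of -0.02. The part of transcript length in the subunits' difference was not tested.

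**Figure D4:**
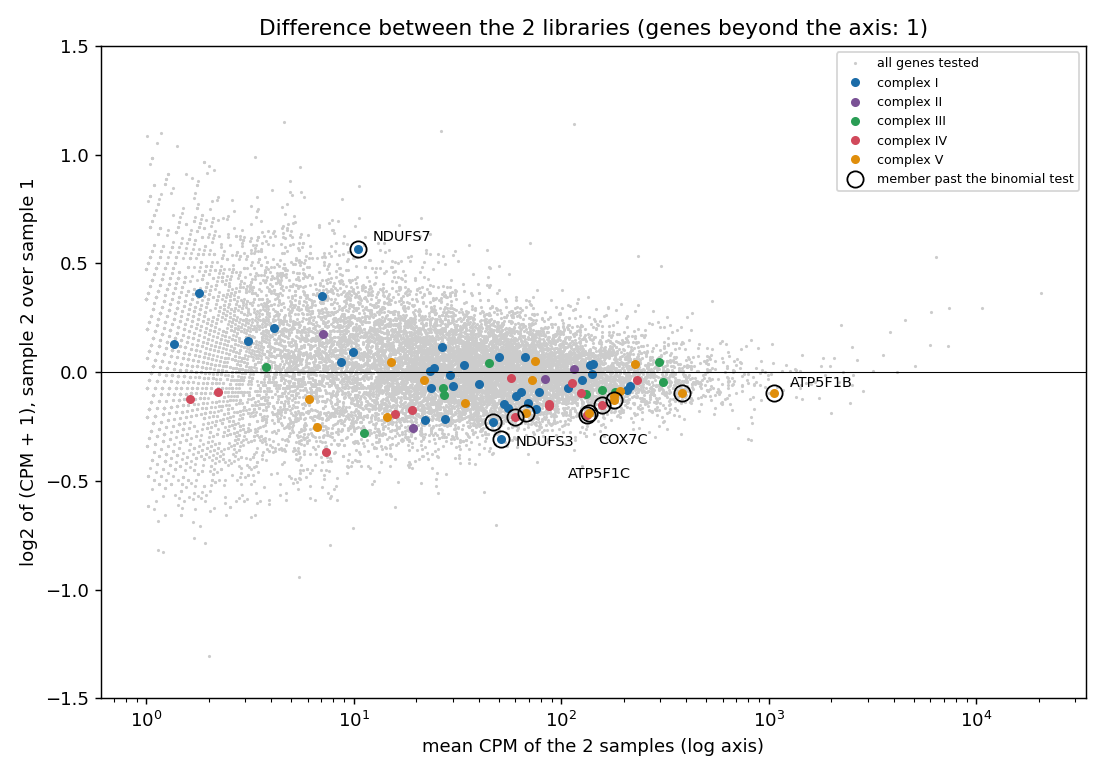
The x axis is the mean CPM of both samples on a log scale and the y axis the log2 ratio of CPM + 1 of sample 2 over sample 1; grey points are all genes tested, coloured points the subunits by complex, and rings mark the 11 subunits past the binomial test. The subunits lie within the cloud of all genes, those of complexes IV and V mostly just under 0, and NDUFS7 is the only ringed subunit above it.

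The rest of the pathway was described by the same measures. The 51 assembly factors, which build the complexes but are not part of them, had a median of 23.0 CPM. Of the 50 tested, 1 was higher in sample 2 and 3 were lower by the exact binomial test (4.41% and 4.56% of all genes), and the median log2 ratio was -0.04. Of 13 regulators of respiratory genes, all with at least 1 CPM, 1 was lower, the nuclear receptor gene ESRRA at 65.6 and 55.1 CPM. CYCS, which encodes the cytochrome c that carries electrons between complexes III and IV, had 166 and 147 CPM, and ATP5IF1, the inhibitor of the ATP synthase, 102 and 90.8 CPM. Both were lower by the exact binomial test. Of the 13 mitochondrially encoded subunits, 7 were higher and 1 lower, against the same shares of all genes, with a median ratio of 0.12. By edgeR's exact test 0 of the 78 genes tested in these lists passed, and 7 had an unadjusted p under 0.05, 5 of them mitochondrially encoded. Of all genes tested, 0.0837% passed and 5.67% had such an unadjusted p.

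The subunit genes are compact. They lie on 22 chromosomes, 3 on the X chromosome and 12 on chromosome 19 (13.6%, against 7.08% of protein-coding genes whose mean reached 1 CPM). The median principal transcript has 1018 bases, against 3253 over those protein-coding genes. Another protein-coding gene starts within 1000 bases on the opposite strand for 15 of the 88 (17.0%), among them SDHA, UQCRH and ATP5F1C, and for 9.46% of those protein-coding genes.

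Many of the promoters hold a motif of NRF1, of the ETS family to which GABP belongs, or of YY1, factors known to act on respiratory genes. Promoter windows of 250 bases before to 50 after the annotated start, from RefSeq (GRCh38.p14), were found for 71 subunits (85 windows). Those with no entry included ATP5F1B, ATP5F1D, ATP5MC3, ATP5MF, ATP5MGL, COX4I2, COX6C, COX7A1, CYC1, NDUFB5, NDUFB9, NDUFC2, NDUFS5, SDHC, UQCRB and UQCRHL. The letters searched on both strands were GCGCA, any base (N) and GCGC for NRF1, CCGGAAGT for the ETS family and AANATGGCG for YY1. At least 1 of them stood in 40 of 85 windows (47.1%), against 19.5% of windows of the protein-coding genes whose mean reached 1 CPM and 11.8% of all windows. For NRF1 the shares were 20%, 9.29% and 5.78%, for the ETS family 14.1%, 6.89% and 4.14%, and for YY1 22.4%, 5.59% and 3.19%. In all, 38 subunits had a match, and windows of 1 gene can overlap. A match describes letters and is no evidence of binding, and transcription factor binding was not measured here.

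The matches were not spread evenly over the complexes. A window held at least 1 match in 18 of 39 cases for complex I, 3 of 3 for complex II, 6 of 7 for complex III, 4 of 19 for complex IV and 9 of 17 for complex V. The share was 46.2% in complex I, 52.9% in complex V and 21.1% in complex IV. For complex IV this is close to the 19.5% of the protein-coding genes whose mean reached 1 CPM. Complexes II and III rest on few windows. The following 30-base stretches are shown because each is a match, in capitals, of the subunit with the highest CPM per kilobase for its complex and motif. They are printed on the gene's own strand, so that a match on the other strand shows the reverse complement of the letters searched, such as ACTTCCGG for the ETS family.
NDUFB4, NRF1, chr3:120596167-120596196 on the plus strand: agagcacttcGCGCATGCGCatatcaccga
SDHD, NRF1, chr11:112086753-112086782 on the plus strand: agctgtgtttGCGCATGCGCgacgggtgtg
UQCRC1, NRF1, chr3:48609674-48609703 on the minus strand: gtacggtactGCGCCTGCGCcgcgaccgcc
COX8C, NRF1, chr14:93347157-93347186 on the plus strand: cgtggctgggGCGCCTGCGCaaaccagctg
ATP5F1C, NRF1, chr10:7788145-7788174 on the plus strand: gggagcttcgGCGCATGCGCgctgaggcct
NDUFS1, ETS, chr2:206159584-206159613 on the minus strand: aggctggggccACTTCCGGcggaactgcgg
SDHD, ETS, chr11:112086784-112086813 on the plus strand: accgcctctcgACTTCCGGttcacccagca
UQCRH, ETS, chr1:46303640-46303669 on the plus strand: gagtgtgccgcACTTCCGGccagatcgccg
COX5B, ETS, chr2:97646014-97646043 on the plus strand: gaagcccgcccCCGGAAGTccctcctgtct
ATP5F1A, ETS, chr18:46098327-46098356 on the minus strand: cgaggggcagtACTTCCGGgtcaggtgggc
NDUFS8, YY1, chr11:68030491-68030520 on the plus strand: tccccaaaccAACATGGCGgccccctacaa
SDHB, YY1, chr1:17054003-17054032 on the minus strand: gtcaggagccAAGATGGCGgcggtggtcgc
UQCRC1, YY1, chr3:48609604-48609633 on the minus strand: ctgcagctggAAGATGGCGgcgtccgtggt
COX6A1, YY1, chr12:120438114-120438143 on the plus strand: gtccagatcaAAAATGGCGgtagttggtgt
ATP5PF, YY1, chr21:25735092-25735121 on the minus strand: aggcgaagaaAAGATGGCGgaggctgtgcc
The NRF1 and ETS matches shown lie between 15 and 159 bases before the annotated start. The YY1 matches of SDHB, UQCRC1 and COX6A1 lie 10 to 23 bases after it, and those of NDUFS8 and ATP5PF 180 and 207 bases before it. The ATP5PF match also lies 57 bases before another annotated start. The YY1 letters contain ATG. In 12 of the 19 YY1 matches, counted per window, this ATG is an annotated start codon of the subunit (GENCODE 29). SDHB, UQCRC1 and COX6A1 are among them, and NDUFS8 and ATP5PF are not. Overlapping windows count the same YY1 site of NDUFS1 and of ATP5PF more than once, and 17 subunits had a YY1 match. SDHA, the low flavoprotein of complex II, has 4 NRF1 matches in a single window, each 49 bases from the next.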

How the data were processed

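RNA was extracted with TRIzol and made into directional libraries from total RNA, per the labels' protocols. Per Ensembl gene the table of deposited counts gives whole numbers, and the deposited CPM equal these counts divided by 1 library size per sample, which exceeded the count total by 3.78% in sample 1 and by 2.68% in sample 2. STAR 2.7.7a, edgeR and the build GRCh38 are named in the submitters' processing notes. Which annotation and counting program were used, with which strand setting and which handling of reads that match more than 1 gene, was not given in the sources used here.

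Members were matched by symbol through GENCODE 29, which held 96.4% of the gene IDs. Reads of genes whose exons overlap another gene's, or that have near-identical copies, could have been split or dropped in the authors' counting. CPM per kilobase divides the CPM by the length of the longest principal protein-coding transcript (APPRIS tag). Long annotated 3′ ends lower this value, so the median length of a gene's protein-coding transcripts was added as an alternative after the values were seen. Log2 ratios are of CPM + 1, which understates the ratio of low genes, over genes whose mean reached 1 CPM. The exact binomial test set the counts of each gene against the share of reads given by the library sizes and was tested on simulated data. The simulated counts held counting error only, as the test assumes, so they cannot show how it behaves with further variation between libraries. Intervals are 95% exact Poisson intervals and cover counting error only, as does the floor of 3 counts. Mean ± SD is over 2 samples. The common dispersion came from edgeR 4.0.16 in R 4.3.3, and other scalings from DESeq2 1.42.0 and edgeR. Other steps used Python 3.11.15, pandas 2.3.3, numpy 2.4.6, scipy 1.17.1, statsmodels 0.14.6 and matplotlib 3.10.9.

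Genes were named by rule: members of isoform sets, the highest and lowest of each complex, subunits past the binomial test, the core subunits, subunits with a count of 0 or under 50% unique stretches, and FKBP5. The values of 1 subunit are not reported here, although it stays in the counts and medians of the set. Subunits named beyond it were chosen after their values were seen. The members and gene lists were chosen with earlier results of these data known.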

Additional observations from a re-analysis of the deposited data

How the results depend on the processing

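The count of subunits past the binomial test was 14 of 80 under each of the other 3 scalings and 12 of 73 with a minimum of 5 CPM. Of all genes, 9.64% passed with column totals, 9.55% with DESeq2 size factors and 9.56% with TMM library sizes. With the minimum of 5 CPM, 710 of all 11888 genes were higher and 769 lower. With no filter on low counts 7 of 86 passed, where 471 of all 41325 genes were higher and 501 lower. By edgeR's exact test 0 passed, where 2 had an unadjusted p under 0.05 (2.5%, against 5.67% of all genes). The median log2 ratio stayed between -0.09 and -0.06 in all 6 alternatives run for it, and 8 subunits were under 1 CPM in all 3 run for that count. The median of all subunits was 44.5 to 46.6 CPM when either sample was left out and 60.5 CPM over subunits with at least 90% unique stretches. The medians in CPM per kilobase moved with the length used. By the union of exons they were 14.5, 6.34, 26.6, 10.2 and 23.9 for complexes I to V in order. By unique stretches they were 35.6, 12.8, 39.3, 25.01 and 55.7. By the median transcript length they were 51.3, 93.3, 58.0, 30.1 and 74.3, and over subunits with at least 90% unique stretches 34.8, 53.1, 32.2, 23.5 and 61.2. The ratio of mitochondrial to nuclear medians, averaged over both samples, was 97.3 in complex III, 467 in complex IV and 54.9 in complex V with unique subunits alone, against 89.6, 579.9 and 78.1 with all, and 330.3 in complex IV over subunits with at least 1 CPM. These settings were added after the values were seen. With CPM not divided by length, the main isoform held 98.6% for COX6B1, 60.3% for COX7A2, 96.4% for NDUFA4, 97.6% for UQCRH and 15.5% for ATP5MC1. By the median transcript length COX6B1 held 99.59%, COX7A2 74.7% and ATP5MC1 23.1%. These moves of the isoform shares follow from the lengths alone. No paired analysis was possible because both samples belong to 1 group, so no number is shared between groups. Depth limits the lowest subunits: the floor of 3 counts is 0.289 CPM in sample 1 and 0.137 CPM in sample 2.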

Other observations

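The assembly factors had fewer abundant transcripts than the subunits, with 2 of 51 at 100 CPM or more against 25 of 88. NDUFAF3 and ATPAF1, which act on complex I and on the F1 head, were the highest at 109 and 109.4 CPM and at 115 and 110.5 CPM. PET117, a factor of complex IV, had 0 and 3 counts and was the only one of 51 under 1 CPM. SDHAF4, which binds the flavoprotein SDHA during assembly, was the only one higher in sample 2 by the exact binomial test, at 13.2 and 18.3 CPM (log2 ratio 0.44, adjusted p = 0.0152). COX17, which carries copper to complex IV, was lower at 25.6 and 20.4 CPM, as were COA7 and NDUFAF8. The nuclear coactivator gene PPARGC1A, known for raising mitochondrial content, was expressed at 7.13 and 7.64 CPM, and its relative PPRC1 at 188 and 180.5 CPM.

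MT-ATP8 and MT-ATP6 lie on a shared transcript and overlap, yet their counts were far apart. MT-ATP8 had 98 and 279 counts and MT-ATP6 43060 and 106994. MT-ND4L, which overlaps MT-ND4, had 2614 and 5390 counts beside 56664 and 144707. How reads in the shared bases were counted was not given in the sources used here.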
